A study of Saccharomyces cerevisiae with 36 samples.

Results

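The genes described here were the open reading frames of budding yeast whose standard name is UTP, NOP, NOC or DBP followed by a number. That rule chose 47 of the 6600 reading frames counted, 18 named UTP, 17 NOP, 3 NOC and 9 DBP, and all 47 passed the filter on low counts that left 6017 genes for testing. By their known roles 24 act in small-subunit assembly, 15 in large-subunit assembly and 4 are core proteins of small nucleolar ribonucleoproteins (snoRNPs), while 4 (NOP13, DBP1, DBP2 and DBP5) have other or unassigned roles. DBP4 is listed as HCA4 in the reference and so fell outside the rule. The data were RNA sequencing counts from 36 libraries of strain BY4742, in 12 groups of 3 biological replicates lettered A, B and C. The 4 strains were wild type (WT), a deletion of MPK1 (mpk1Δ, also named SLT2, the mitogen-activated protein kinase of the cell wall integrity pathway), a deletion of RRP6 (rrp6Δ, an exonuclease of the nuclear RNA exosome) and the mpk1Δ rrp6Δ double deletion. All were grown in YPD at 25 °C to mid-log phase and sampled before heat or after 10 or 45 min at 42 °C, so each comparison asks how heat, a deletion or both changed RNA levels.

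Eukaryotic ribosomes are assembled in the nucleolus, where a long precursor RNA is modified, folded and cut while proteins join it. UTP proteins, named for the U3 snoRNA, build the small-subunit processome around the 5′ part of that precursor, NOP and NOC proteins act along both branches, and most DBP proteins are DEAD-box helicases that remodel RNA. Budding yeast transcribes many of these genes together as the ribosome biogenesis regulon, and lowers them under stress. Many promoters of the regulon carry a PAC element, bound by Dot6 and Tod6, and an RRPE element, bound by Stb3.

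The promoters are shown to give the sequence that most of the 47 genes share and that a few lack. The letters searched were GATGAG for the PAC core and AAAATTTT for the RRPE core, on both strands, with overlapping matches counted, from 250 bases before to 50 bases after the gene start in build R64. A PAC match was found for 41 of the 47 genes (87.2%), against 19.9% of the 5897 promoters of the reference, and an RRPE match for 31 (66.0%), against 9.16%. Both were found for 29 genes (61.7%, against 4.46%), and neither for UTP22, UTP30, DBP5 and DBP1. The shares were alike in the main classes: 21 of 24 small-subunit and 14 of 15 large-subunit genes had a PAC match, and 17 and 10 had an RRPE match, as did 4 and 3 of the 4 snoRNP genes. Of 65 PAC matches 62 lay before the gene start, with a median start 117 bases before it, and the median of the 37 RRPE matches was 133 bases before it; the only PAC match of UTP4 lay inside the gene.

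Below are the 250 bases before the start of 6 genes, 5′ to 3′ on the gene's strand, from the RefSeq R64 genome, with the PAC core (GATGAG or its complement CTCATC) and the RRPE core in capitals. UTP23 (chrXV:333342-333591, plus strand), NOP15 (chrXIV:418489-418738, minus strand) and NOP1 (chrIV:427114-427363, plus strand) stand for the small-subunit, large-subunit and snoRNP genes that fell most in heated WT cells. UTP20 (chrII:227386-227635, plus strand) has both cores and did not pass the test there, UTP30 (chrXI:556268-556517, plus strand) has neither and fell, and DBP1 (chrXVI:326265-326514, minus strand) has neither and rose.
UTP23: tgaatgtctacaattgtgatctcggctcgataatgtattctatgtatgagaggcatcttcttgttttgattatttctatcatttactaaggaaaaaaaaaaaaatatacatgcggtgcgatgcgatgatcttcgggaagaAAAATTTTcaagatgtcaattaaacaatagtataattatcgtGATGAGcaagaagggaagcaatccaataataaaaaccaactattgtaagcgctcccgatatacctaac
NOP15: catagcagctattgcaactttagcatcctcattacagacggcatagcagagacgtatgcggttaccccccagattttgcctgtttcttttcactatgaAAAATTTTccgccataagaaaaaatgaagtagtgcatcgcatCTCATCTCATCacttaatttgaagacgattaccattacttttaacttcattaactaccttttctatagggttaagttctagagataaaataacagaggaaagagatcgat
NOP1: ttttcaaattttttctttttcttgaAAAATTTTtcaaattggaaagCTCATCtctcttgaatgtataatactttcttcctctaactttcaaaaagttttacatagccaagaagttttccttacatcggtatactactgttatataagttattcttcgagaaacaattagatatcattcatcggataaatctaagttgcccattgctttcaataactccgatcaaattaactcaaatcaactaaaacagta
UTP20: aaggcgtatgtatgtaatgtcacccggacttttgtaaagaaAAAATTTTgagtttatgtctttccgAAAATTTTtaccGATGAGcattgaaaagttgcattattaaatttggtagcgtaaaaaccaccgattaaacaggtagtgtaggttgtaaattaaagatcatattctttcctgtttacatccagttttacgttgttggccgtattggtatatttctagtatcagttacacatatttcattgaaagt
UTP30: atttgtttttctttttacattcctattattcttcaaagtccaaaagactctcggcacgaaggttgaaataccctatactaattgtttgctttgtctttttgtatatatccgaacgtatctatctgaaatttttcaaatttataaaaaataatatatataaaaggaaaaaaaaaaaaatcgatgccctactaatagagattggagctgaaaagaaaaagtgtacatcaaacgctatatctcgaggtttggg
DBP1: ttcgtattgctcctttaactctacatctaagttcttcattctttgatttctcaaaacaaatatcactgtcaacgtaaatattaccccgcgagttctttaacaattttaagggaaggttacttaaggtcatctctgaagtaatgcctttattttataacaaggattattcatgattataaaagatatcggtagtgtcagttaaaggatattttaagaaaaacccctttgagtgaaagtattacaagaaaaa

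**Figure D1:**
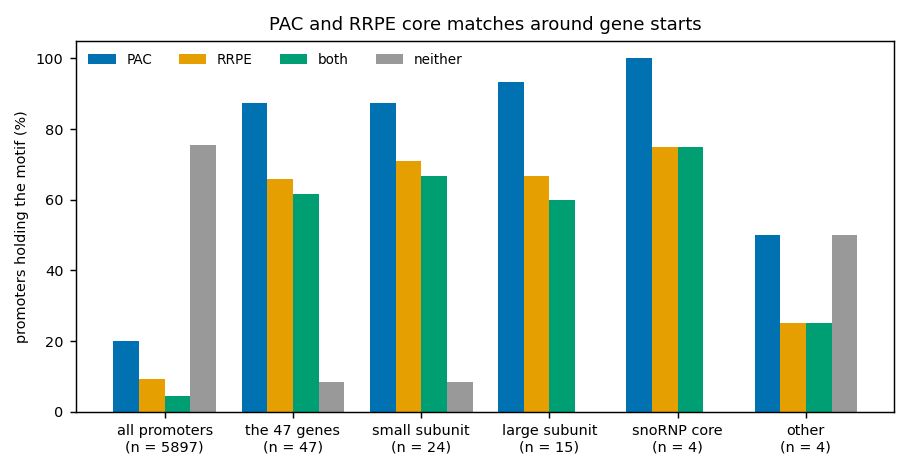
Share of promoters (%, vertical axis) with a PAC match, an RRPE match, both or neither, for all 5897 reference promoters, the 47 genes and their 4 classes. PAC matches were in 87.2% of the 47 and 19.9% of all promoters.

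The libraries held 2235918 to 12072112 gene counts, and the 47 genes had from 3 to 13461 counts in a library, with 5 of 1692 values below 10. Levels are given as CPM, read counts scaled to a common library size with TMM factors (the trimmed mean of M values). SLT2 had 6 counts in all over the 18 libraries labelled as deleted for it and at least 111 in each of the others, and RRP6 had 2 in all against at least 40. The listed alpha-cell genes, expected of BY4742, had from 59553 (STE3) to 241263 (MF(ALPHA)1) counts in all. The listed a-cell genes had from 453 (AGA2) to 4470 (STE2). Of the auxotrophy markers LYS2 and URA3 had 0 and LEU2 1. HIS3 had 10381, with 25 to 1164 in each library, and the source of these was not tested. Heated WT libraries stood apart by letter: replicate B was above its group mean for 46 and 47 of the 47 genes at 10 and 45 min (median log2 deviation 0.53 and 0.65) and replicate C below (-0.53 and -0.64), while the medians over all genes were at most 0.02. Heated libraries of other strains stood apart too, but not always by the same letters. In these, mpk1Δ 10 min replicate A was above its group mean for 47 genes (0.31) and replicate B for 1 (-0.45). So were mpk1Δ 45 min replicate B for 41 (0.37) and double-deletion 10 min replicates B and C for 44 and 3 (0.30 and -0.33). In rrp6Δ replicate A was above its group mean for 38 and 37 genes at 10 and 45 min (0.22 and 0.23). No spike-in is described in the labels, so each level is relative to the rest of the library, and fewer transcribing cells cannot be told apart from less RNA per cell. The p-values rest on a spread between replicates that was estimated over all 36 libraries and shared by the 12 groups. They do not measure the spread of the compared groups alone. Unheated WT replicates lay closer together than heated ones (median log2 deviations 0.04, 0.05 and -0.08 for A, B and C).

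Before heat the 47 genes differed widely in level. In unheated WT the snoRNP core genes led, with 1970 ± 172 CPM per kilobase of coding length for NOP10 (SD, n = 3), 781 ± 32.6 for NOP1 and 719 ± 16.5 for NOP56, each beyond 1 SD of the next. NOP7 (416 ± 14.9) and NOP58 (405 ± 5.33) came next and did not differ beyond that spread, nor did DBP2 (373 ± 9.12), NOP16 (356 ± 25.7) and NOP15 (348 ± 40.8). The highest small-subunit genes were NOP6 (268 ± 11.5) and UTP23 (201 ± 8.28). From UTP15 (94.0 ± 6.15) down to DBP7 (36.5 ± 2.07) each gene overlapped its neighbour, and the UTP genes and their partners filled most of that range. UTP10 (32.5 ± 1.33), UTP20 (13.3 ± 1.07) and DBP1 (1.78 ± 0.26) were the lowest, each apart from the next. The lead of NOP10 rests on division by its coding length of 177 bases. By CPM alone it had 349, below NOP56 (1090), NOP1 (768), NOP7 (756), NOP58 (622) and DBP2 (613).

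Heat lowered nearly the whole set in WT. At 10 min 45 of the 47 genes fell and 1 rose, and at 45 min the counts were again 45 and 1, at a Benjamini-Hochberg adjusted p of 0.05 in edgeR's quasi-likelihood test. Over all genes tested 36.2% fell and 38.3% rose at 10 min, and 39.2% fell and 41.0% rose at 45 min. At 10 min 23 of 24 small-subunit genes fell (median log2 fold change -2.90), as did 15 of 15 large-subunit genes (-2.96), 4 of 4 snoRNP genes (-3.21) and 3 of 4 others (-2.26), beside a median of 0.04 over all genes. The medians at 45 min were -2.30, -2.47, -3.46 and -2.62 in the same order. Together the 47 genes took 1.15% to 1.26% of the gene counts before heat, 0.0971% to 0.187% at 10 min and 0.0709% to 0.196% at 45 min. The heated and unheated WT values did not overlap for 46 of the 47 genes at either time, beside 77.8% and 80.1% of all genes at 10 and 45 min.

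**Figure D2:**
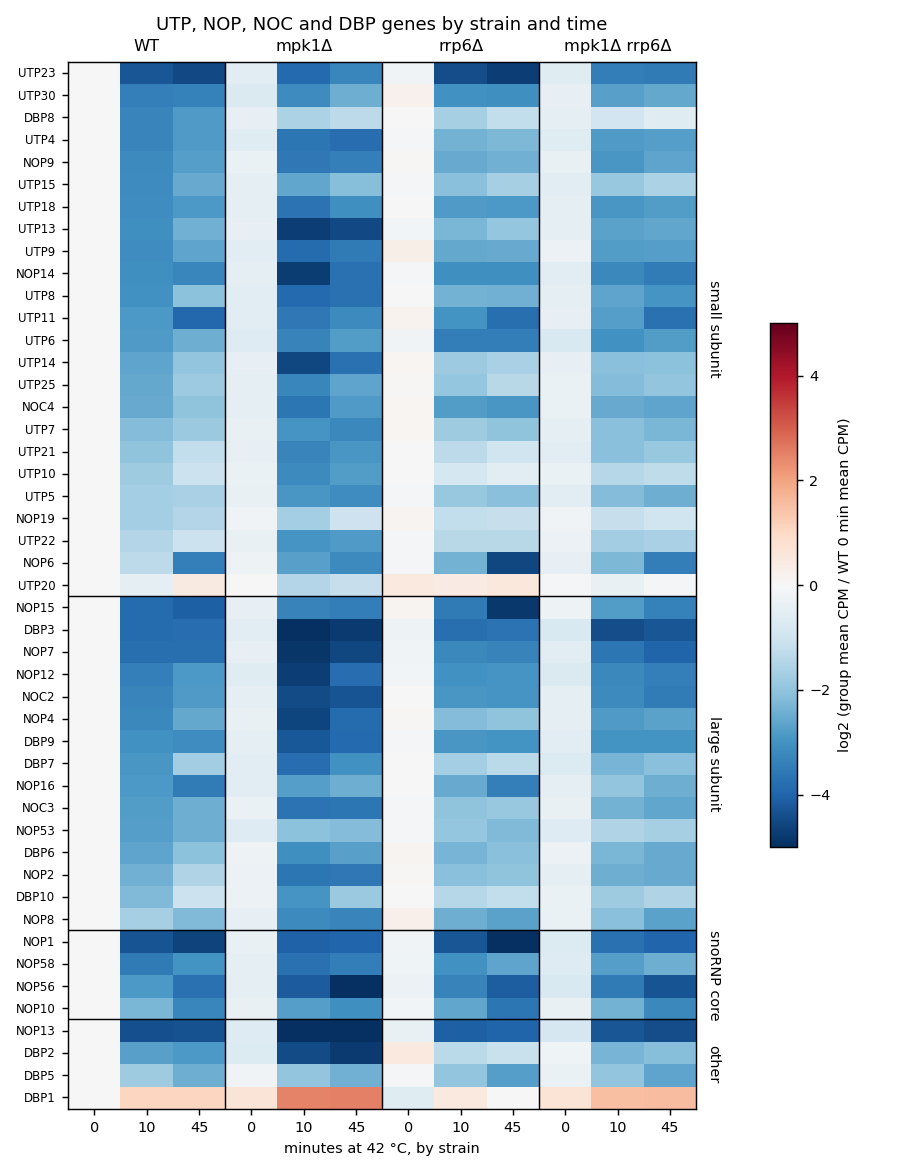
Heat map of the 47 genes (rows, by class, ordered by their change in WT at 10 min) in the 12 strain-by-time groups (columns); colour is log2 of the group mean CPM over the mean in unheated WT. Nearly all heated columns are blue in each strain, DBP1 is red in heated WT, mpk1Δ and double-deletion groups, and UTP20 stays near white outside heated mpk1Δ on this TMM scale; with total counts DBP1 did not pass in WT, rrp6Δ and the double deletion, and UTP20 passed as lower in them except in WT at 45 min.

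Among small-subunit genes, UTP23, whose product is needed to release the snoRNA snR30 from the precursor, fell most. UTP23 had 161, 149 and 151 CPM before heat, 6.04, 14.1 and 3.95 after 10 min and 3.62, 11.2 and 5.56 after 45 min in the WT replicates A, B and C, a log2 fold change of -4.37 ± 0.30 at 10 min (adjusted p = 5.25e-14). All 6 heated values were far below the 3 unheated ones. UTP30, a processome-associated protein that cells can live without, had 72.1, 70.9 and 66.6 CPM before heat, 6.67, 9.02 and 3.95 after 10 min and 2.9, 11.4 and 6.12 after 45 min, and fell by the same test (-3.49 ± 0.26) although its promoter showed neither core. DBP8, a small-subunit helicase, and UTP4, of the UTP-A subcomplex that starts processome assembly, also fell (log2 fold changes -3.36 ± 0.22 and -3.36 ± 0.26). Every one of the 6 UTP-A and 4 UTP-B genes fell, with medians of -3.10 and -3.01, and so did NOC2, NOC3 and NOC4 (median -2.81).

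UTP20, a very large scaffold protein of the processome, was the small-subunit gene that did not pass. UTP20 had 91.9, 99.3 and 108 CPM before heat, 63.8, 95.3 and 57.7 after 10 min and 135, 174 and 97.4 after 45 min in WT. The 10 min values overlapped the unheated ones through replicate B, and at 45 min they ran from the unheated range to above it. Its log2 fold changes were -0.47 ± 0.23 (adjusted p = 0.0614) and 0.46 ± 0.23 (adjusted p = 0.0658). Without WT 10 min replicate B the first was -0.68 (adjusted p = 0.0136), and with total counts in place of TMM it was -0.84 (adjusted p = 0.00118). NOP6, a non-essential RNA-binding protein of early small-subunit precursors, fell in steps, with 188, 173 and 183 CPM before heat, 61.7, 88.9 and 72 after 10 min and 10.9, 24 and 15.6 after 45 min. No value of NOP6 at 45 min reached those at 10 min, and the changes were -1.29 ± 0.26 from 0 to 10 min and -2.01 ± 0.31 from 10 to 45 min (adjusted p = 4.44e-06).

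The large-subunit genes all fell. NOP15, an RNA-binding protein of large-subunit precursors, had 253, 238 and 201 CPM before heat, 15.8, 25.7 and 6.73 after 10 min and 12.3, 21.4 and 7.23 after 45 min and a log2 fold change of -3.91 ± 0.37 at 10 min (adjusted p = 9.77e-11). DBP3, a helicase that aids cleavage in the spacer between the subunit RNAs, had 304, 322 and 286 CPM before heat, 23.1, 26.6 and 14.5 after 10 min and 15.9, 31.5 and 18.4 after 45 min and a log2 fold change of -3.86 ± 0.29. In both genes all heated values were far under the unheated ones, and replicate B was the highest at each heated time. NOP7, which acts in a complex with Erb1 and Ytm1, followed (-3.76 ± 0.35), as did NOP12, an RNA-binding protein of 25S maturation (-3.45 ± 0.36). The smallest falls were those of the helicase DBP10 (-2.23 ± 0.25) and of NOP8, a partner of Dbp6 (-1.71 ± 0.34, adjusted p = 4.33e-05). NOP8 had 77.9, 78.6 and 62.7 CPM before heat, 18.3, 40.3 and 11.4 after 10 min and 15.2, 26 and 6.12 after 45 min. No heated NOP8 value reached the unheated ones, the 10 and 45 min values overlapped, and replicates B and C at 10 min lay far apart.

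Among the snoRNP core genes, NOP1 encodes fibrillarin, the methyltransferase of box C/D particles. NOP1 had 805, 753 and 746 CPM before heat, 39.6, 53 and 24.6 after 10 min and 31.1, 46.3 and 16.7 after 45 min, a log2 fold change of -4.31 ± 0.34 at 10 min (adjusted p = 2.17e-12). NOP58, another box C/D core protein, had 618, 632 and 618 CPM before heat, 50, 74.5 and 36.6 after 10 min and 59.4, 128 and 50.1 after 45 min, and its 10 min change was -3.55 ± 0.26. Both were low in all heated libraries. NOP56, the partner of Nop58, had 1119, 1074 and 1077 CPM before heat, 122, 207 and 119 after 10 min and 73.8, 126 and 49 after 45 min, and NOP10, a core protein of the pseudouridylating box H/ACA particles, had 383, 327 and 336 CPM before heat, 71.9, 85.1 and 59.9 after 10 min and 51.4, 43.3 and 15 after 45 min. Both fell by 10 min (-2.87 ± 0.33 and -2.27 ± 0.26) and again from 10 to 45 min (-0.81 ± 0.32, adjusted p = 0.0401, and -0.97 ± 0.28, adjusted p = 0.0058). The 10 and 45 min values of NOP56 overlapped, those of NOP10 did not.

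Of the other 4, NOP13, a nucleolar RNA-binding protein, had 251, 235 and 219.9 CPM before heat, 7.92, 18.5 and 6.73 after 10 min and 6.51, 22 and 6.12 after 45 min and the most negative change of all 47 genes at 10 min (-4.48 ± 0.36, adjusted p = 2.69e-12). DBP2, a helicase of messenger RNA assembly and decay, had 629.9, 604 and 604 CPM before heat, 100.2, 109.7 and 66.6 after 10 min and 91.2, 114 and 46.2 after 45 min (10 min change -2.74 ± 0.22). Heated values were below all unheated values in both genes. DBP5, the helicase of messenger RNA export, had 212, 233 and 219 CPM before heat, 58.8, 66.2 and 68.1 after 10 min and 44.2, 51.1 and 28.4 after 45 min. Its change was -1.78 ± 0.17 at 10 min and a further -0.61 ± 0.18 from 10 to 45 min (adjusted p = 0.0063), and no 45 min value reached the 10 min values. DBP1, a lowly expressed paralog of the translation initiation helicase DED1 with which it may share reads, had 3.04, 3.86 and 3.01 CPM before heat, 7.71, 4.16 and 8.82 after 10 min and 5.07, 8.78 and 7.23 after 45 min. All heated values were above the unheated ones, by 1.07 ± 0.28 at 10 min (adjusted p = 0.0012) and 1.15 ± 0.31 at 45 min (adjusted p = 0.00134), and with total counts in place of TMM neither change passed (0.69 and 0.45, adjusted p = 0.0556 and 0.237).

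**Figure D3:**
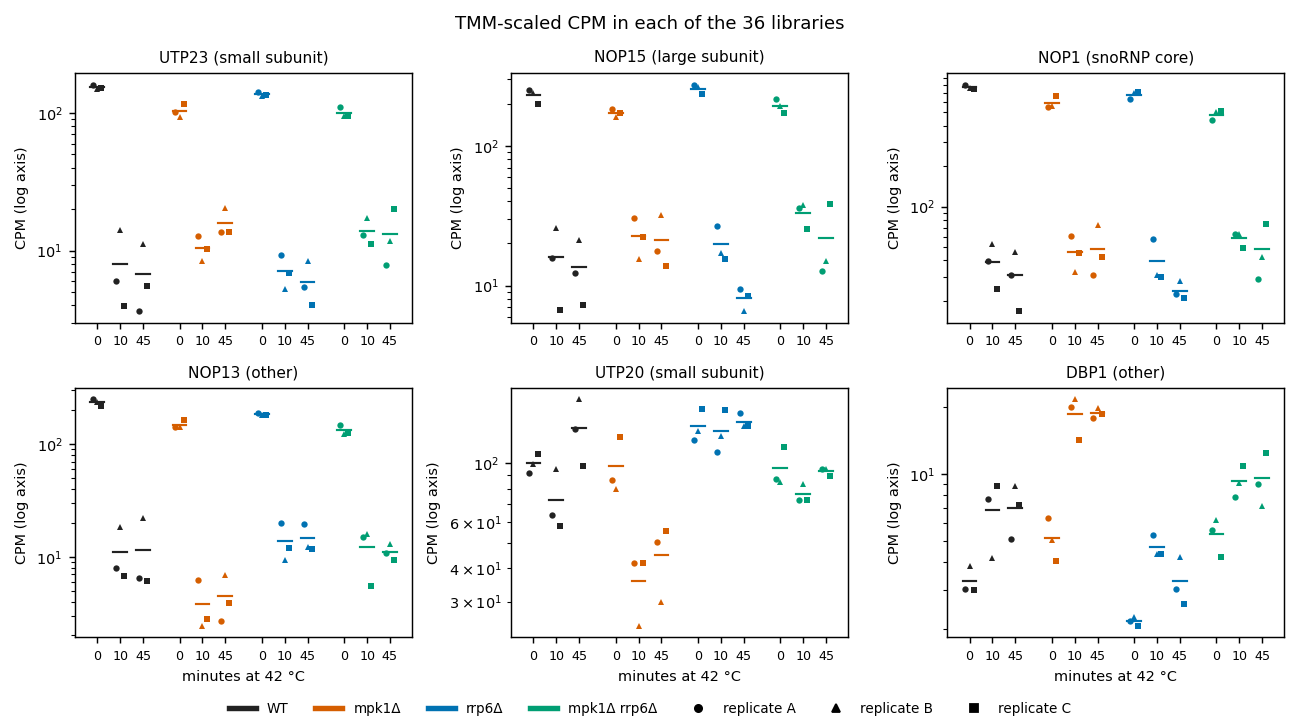
CPM on a log axis against minutes at 42 °C for 6 genes in all 36 libraries; colours are strains, symbols replicates, bars group means. UTP23, NOP15, NOP1 and NOP13 drop in each strain, UTP20 does so in mpk1Δ, and DBP1 lies higher after heat in WT, from 3.01 to 3.86 CPM before and 4.16 to 8.82 CPM after 10 min.

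Set by promoter content, 28 of the 29 genes with both cores fell at 10 min in WT (median -2.87), as did 12 of 12 with the PAC core alone (-3.03), 2 of 2 with the RRPE core alone (-2.98) and 3 of 4 with neither (-1.62). Of the remaining genes with a promoter tested, 83.8% of 234 with both cores fell (median -2.0), 44.2% of 856 with PAC alone (-0.18), 57.5% of 268 with RRPE alone (-0.56) and 32.3% of 4310 with neither (0.12). Genes of the same pathway under other names fell as well. Of 43 small-subunit, 48 large-subunit and 9 snoRNP genes, 40, 46 and 8 fell and 1 of each rose at 10 min (medians -2.40, -3.03 and -2.84). The largest falls were those of IMP3, a U3 particle protein (-4.67 ± 0.37), and DIM1, the 18S dimethylase (-3.95 ± 0.33), ALB1 and NIP7, both large-subunit factors (-5.31 ± 0.33 and -5.0 ± 0.37), and NSR1, yeast nucleolin, and NHP2, an H/ACA protein (-5.14 ± 0.46 and -4.33 ± 0.33). At the other end RCL1 rose (0.82 ± 0.26), as did REA1, an ATPase that strips factors from the large subunit (0.95 ± 0.28), and NAF1, an H/ACA assembly factor (0.52 ± 0.18), while SNU13 fell by less (-1.03 ± 0.20) and ESF1 and RRP14 did not pass (-0.03 ± 0.22 and 0.07 ± 0.16).

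From 10 to 45 min in WT 13 genes rose, 8 small-subunit, 4 large-subunit and 1 snoRNP, and 4 fell further (NOP6, NOP10, NOP56 and DBP5). Over all genes 25.0% rose and 21.8% fell, so the count of members that rose was near the background. The gains were largest for DBP7 (1.25 ± 0.21) and DBP10 (1.17 ± 0.26), large-subunit helicases, and for UTP8 of UTP-A (1.13 ± 0.30). UTP20 rose from 10 to 45 min by 0.93 ± 0.23. The counts rested on single libraries: they were 29, 26, 11 and 8 genes without WT 10 min replicate B, WT 45 min replicate C, WT 10 min replicate C and WT 45 min replicate B. NOP10 and DBP5 did not pass without WT 45 min replicate C (adjusted p = 0.0615 and 0.0705), nor did NOP56 (0.213), which also failed without WT 10 min replicate B (0.249) or WT 45 min replicate A (0.116). With total counts, which lowered the all-gene median (by 0.35), 4 genes rose and 6 fell.

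Coding length ordered the members at 45 min. Spearman's rho between coding length (177 to 7482 bases) and log2 fold change over the 47 genes, which share libraries and differ in depth, was 0.63 for 45 against 0 min in WT and 0.65 for 45 against 10 min, and over 5715 tested genes 0.149 and 0.348. Over 100 genes of the pathway under other names it was 0.638 and 0.478. Of the 9 members under 1000 bases none rose from 10 to 45 min and 2 fell (median -0.23); of the 15 of at least 2000 bases 8 rose and none fell (0.78). Of all genes tested 13.6% of those under 1000 bases and 50.7% of those of at least 2000 bases rose, and 37.3% and 3.48% fell (medians -0.24 and 0.39). The order by length was thus not particular to the members. These are descriptions, and the part of fragment length or RNA integrity was not tested. In single libraries, against their strain's unheated mean, rho at 45 min was 0.584, 0.644 and 0.4895 in WT, 0.699, 0.631 and 0.610 in rrp6Δ, 0.445, 0.459 and 0.158 in the double deletion and -0.0389, -0.279 and 0.0130 in mpk1Δ. Each mpk1Δ library lay below every library of the other strains.

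The deletion strains also lost the set in heat. In mpk1Δ 46 fell and DBP1 rose at both times, where 36.9% and 39.5% of all genes fell and 40.5% and 42.4% rose. The medians were -2.89 and -2.59 for small-subunit and -3.35 and -3.17 for large-subunit genes at 10 and 45 min. In rrp6Δ 45 fell at both times and DBP1 rose at 10 min alone, beside 37.7% and 39.0% of all genes that fell and 37.2% and 40.5% that rose, with small-subunit medians of -2.21 and -2.14 and large-subunit medians of -2.54 and -2.84. In the double deletion 45 and 44 fell and DBP1 rose at each time, beside 37.3% and 37.9% falling and 37.3% and 39.9% rising; the medians were -2.03 and -2.05, and -2.03 and -2.21. UTP20 fell in mpk1Δ (-1.43 ± 0.23 and -1.11 ± 0.23 at 10 and 45 min), where it had 86.4, 80.1 and 125 CPM before heat, 41.9, 24.2 and 41.9 after 10 min and 50.3, 29.8 and 55.2 after 45 min. In rrp6Δ (-0.07 ± 0.22 and 0.05 ± 0.22) and the double deletion (-0.33 ± 0.22 and -0.04 ± 0.22) it did not pass. With total counts it fell there too, by 0.61 and 0.62 in rrp6Δ (adjusted p = 0.0114 and 0.0106) and by 0.83 and 0.57 in the double deletion (0.00104 and 0.0198). All heated UTP20 values lay below the unheated ones in mpk1Δ. That strain was tested against WT and not against the other deletion strains. The rise of DBP1 passed with total counts in mpk1Δ (1.53 and 1.73), but not in rrp6Δ at 10 min (0.58, adjusted p = 0.113) or in the double deletion (0.31 and 0.33, adjusted p = 0.282 and 0.293).

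From 10 to 45 min 11 genes rose and 2 fell (NOP56 and DBP5) in mpk1Δ, beside 25.6% and 26.4% of all genes. In rrp6Δ 1 rose (UTP25) and 5 fell (NOP6, NOP15, NOP10, NOP16 and DBP5), beside 16.9% and 18.1%, and in the double deletion none rose and 3 fell (NOP6, NOP10 and DBP5), beside 16.9% and 18.3%. NOP6 had the largest of these falls in both (-2.15 ± 0.34 in rrp6Δ and -1.16 ± 0.30 in the double deletion). In the double deletion 6 genes had an unadjusted p under 0.05, and DESeq2 also called none higher (5 lower). Counts moved to 5 and 7 without mpk1Δ 10 min and 45 min replicate B, to 3 without rrp6Δ 10 min replicate A, and to 6 and 5 without double-deletion 10 min and 45 min replicate C.

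Before heat 4 of the 47 genes were lower in mpk1Δ than in WT (UTP30, DBP2, NOP53 and DBP7) and none higher, beside 5.22% lower and 9.99% higher over all genes. In this fit of all 36 libraries the count was near the background. The member median was -0.42, and -0.27 with total counts. The groups did not overlap for 43 of the 47, beside 49.8% of all genes. UTP30 and DBP2 had the most negative changes, -0.70 ± 0.21 (adjusted p = 0.0217) and -0.69 ± 0.21 (adjusted p = 0.0207); DBP1 (0.62 ± 0.28) and UTP20 (-0.04 ± 0.22) were the least negative and did not pass. Blocking on the replicate letter gave 8 genes. A fit of the 6 libraries alone gave 41 lower and 0 higher, beside 1086 lower and 1181 higher over all genes kept in that fit. Total counts gave 0, beside 78 lower and 863 higher over all genes. The count was 1, 0, 2, 2 and 1 without WT 0 min replicate A, WT 0 min replicate B, and mpk1Δ 0 min replicates A, B and C. UTP30 failed without 4 of these libraries (adjusted p = 0.0688 to 0.0792) and DBP2 without 3 (0.0525 to 0.110).

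In the double deletion 10 genes were lower than in WT before heat (5 small-subunit, 3 large-subunit, 1 snoRNP and NOP13) and none higher, beside 11.6% and 14.8%, with a median of -0.46. The groups did not overlap for 41 genes, beside 54.8% of all genes. NOP13 (-0.83 ± 0.29, adjusted p = 0.0348) and DBP3 (-0.78 ± 0.25, adjusted p = 0.0199) were lowest, while DBP1 (0.63 ± 0.28) and UTP20 (-0.06 ± 0.22) did not pass. The blocked fit gave 16, and total counts 1, a gene higher. The fit of the compared libraries alone gave 40 lower and 0 higher, beside 1304 lower and 1353 higher over all genes kept in it. Without WT 0 min replicate A, B or C the count was 2, 1 and 5, and without double-deletion 0 min replicate A, B or C it was 4, 2 and 1; NOP13 failed without any 1 of the 6 (adjusted p = 0.0526 to 0.103) and DBP3 without 3 of them (0.0570 to 0.0638). In rrp6Δ 0 genes passed before heat, beside 4.64% lower and 9.32% higher over all genes. In edgeR 3 had an unadjusted p under 0.05, DESeq2 called 0 and total counts 2. The fit of the 6 libraries alone called 5 lower and 4 higher, beside 916 and 1037 over all genes kept in it. With all 36 libraries the extremes in rrp6Δ were DBP1 (-0.65 ± 0.31), NOP13 (-0.36 ± 0.29), DBP2 (0.47 ± 0.21) and UTP20 (0.47 ± 0.22).

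After heat mpk1Δ held less of most of these RNAs than WT, as TMM-scaled values. At 10 min 28 genes were lower and 4 higher, beside 22.3% and 22.6% of all genes, and at 45 min 29 were lower and 5 higher, beside 31.5% and 29.9%. Small-subunit genes split 14 lower and 2 higher at 10 min and 14 and 3 at 45 min, large-subunit genes 11 and 1, then 12 and 1. UTP14, the activator of the helicase Dhr1, was lowest at 10 min (-1.84 ± 0.52, adjusted p = 0.00478), and UTP13 of UTP-B and NOP2, a methyltransferase of 25S RNA, at 45 min (-2.10 ± 0.27 and -2.08 ± 0.35). DBP3 was lower at 10 min (-1.80 ± 0.33); DBP8 and DBP1 were higher at 10 min (1.77 ± 0.22 and 1.37 ± 0.22) and at 45 min (1.498 ± 0.23 and 1.31 ± 0.25). At 45 min total counts raised the all-gene median by 0.76. Then 14 members were lower and 14 higher, beside 665 lower and 3862 higher of the 6017 genes tested. Without WT 10 min replicate B 15 were lower and 6 higher at 10 min and UTP14 did not pass (adjusted p = 0.0928), and without WT 45 min replicate B 13 were lower and 8 higher at 45 min.

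These differences followed coding length too. At 45 min 14 of 15 members of at least 2000 bases were lower in mpk1Δ than in WT (median -1.54), as were 15 of 23 between 1000 and 2000 bases (-0.88) and none of 9 shorter ones, of which 3 were higher (0.58). The same order held outside the set: of all genes tested 57.2% of those of at least 2000 bases were lower (median -0.46), 28.2% of the middle class (0.06) and 22.7% of the shorter ones (0.26). Of these shorter genes 39.5% were higher. Of the 100 pathway genes under other names 21 of 23, 14 of 44 and 3 of 33 were lower (medians -1.70, -0.21 and 0.59). HCA4, the gene outside the rule that encodes Dbp4, had a log2 fold change of -2.85 ± 0.29.

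Tested as a difference in heat response, with the unheated levels taken into account, 8 members fell more and 4 fell less in mpk1Δ than in WT by 10 min, beside 13.3% and 7.98% of all genes. By 45 min 14 had the lower and 6 the higher response, beside 24.7% and 17.5%. The lower ones at 45 min were 8 small-subunit, 4 large-subunit, 1 snoRNP and 1 other gene, led by NOP2 (-1.79 ± 0.47) and UTP13 (-1.69 ± 0.34). UTP20 was among them (-1.57 ± 0.32). UTP13 had 160.4, 159.6 and 144 CPM before heat, 17.1, 25.9 and 12 after 10 min and 33.3, 37.1 and 16.7 after 45 min in WT and 113, 113 and 126 CPM before heat, 6.75, 3.79 and 7.23 after 10 min and 6.17, 8.37 and 6.03 after 45 min in mpk1Δ. Its heated mpk1Δ values lay below every heated WT value. The higher ones were led by DBP8 (1.91 ± 0.29) and UTP23 (1.55 ± 0.42); at 10 min they were led by DBP8 (2.18 ± 0.29) and NOP53, which recruits the exosome to large-subunit precursors (1.34 ± 0.31), and the lowest were DBP3 (-1.22 ± 0.41, adjusted p = 0.0353) and UTP14, which did not pass (-1.45 ± 0.66).

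With total counts the 45 min split turned to 5 lower and 13 higher, with the all-gene median 0.60 higher, while rho of this difference with coding length at 45 min was between -0.75 and -0.62 over all alternatives. At 10 min the count was 7 with total counts, and 7 and 6 without mpk1Δ 0 min replicate C and mpk1Δ 10 min replicate B. DBP3 at 10 min failed without any 1 of 6 libraries (adjusted p = 0.0578 to 0.152), and UTP14 passed without WT 10 min replicate C (-1.87, adjusted p = 0.0341).

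**Figure D4:**
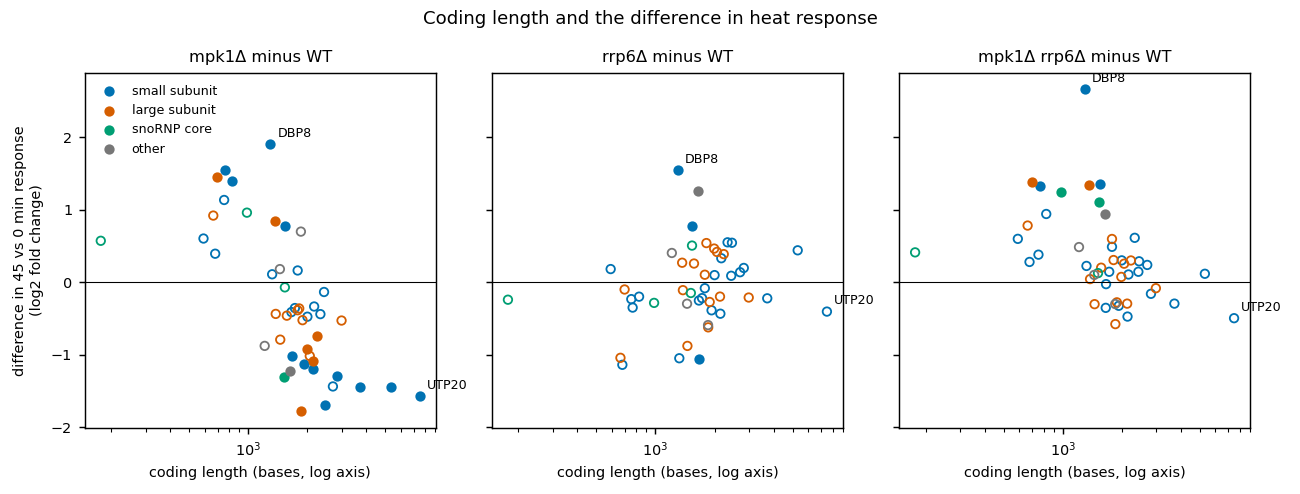
Difference from WT in the log2 change from 0 to 45 min (vertical axis) against coding length in bases (log axis) for the 47 genes in each deletion strain; filled points passed edgeR's test, colours are classes. In mpk1Δ the members under 1000 bases lie above 0 (median 0.96) and those of at least 2000 bases below (median -1.09), and with total counts the whole mpk1Δ panel moves up by 0.60.

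In rrp6Δ the members were higher than in WT at 10 min for 15 genes (9 small-subunit, 5 large-subunit and DBP2) and lower for NOP6, beside 14.5% and 15.8% of all genes. DBP8 (1.71 ± 0.23) and DBP2 (1.37 ± 0.21) were highest, NOP6 (-1.07 ± 0.27) was lowest, and NOP8 did not pass (-0.74 ± 0.38). By 45 min 3 were higher and 4 lower, beside 21.7% and 24.7%: DBP2 (1.73 ± 0.22), DBP8 (1.54 ± 0.24) and UTP15 above, and UTP6 of UTP-B (-1.24 ± 0.37), DBP1 (-1.24 ± 0.33), NOP6 and NOC4 below. Without WT 10 min replicate B or C the 10 min count was 25 and 8, the second with NOP8 called lower (-1.13, adjusted p = 0.0233), and without WT 45 min replicate C the 45 min count was 12. Without WT 45 min replicate B, DBP1 (adjusted p = 0.0568) and UTP6 (-0.40, adjusted p = 0.512) did not pass.

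As heat responses, 7 members fell less in rrp6Δ than in WT by 10 min and none more, beside 4.79% and 8.38% of all genes, and at 45 min 3 fell less and 1 (NOC4, the partner of Nop14) more, beside 12.6% and 19.6%. DBP8 led both (1.71 ± 0.29 and 1.54 ± 0.30), followed by the helicase DBP7 at 10 min (1.31 ± 0.25) and DBP2 at 45 min (1.26 ± 0.30). NOC4 had -1.07 ± 0.32 at 45 min, which failed without WT 45 min replicate B (adjusted p = 0.0814). NOP6 (-0.99 ± 0.37 and -1.14 ± 0.46) and NOP8 at 10 min (-0.98 ± 0.49) did not pass. NOP6 passed at 10 min without rrp6Δ 10 min replicate A (adjusted p = 0.0346) and in the compared libraries alone (0.00905), and at 45 min without WT 45 min replicate A or C (0.0286 and 0.0461). At 45 min it also passed with DESeq2 (0.0448), with no low-count filter (0.0485) and in the compared libraries alone (0.00649). The 10 min count was 15 without WT 10 min replicate B and 3 or 4 without WT 0 min replicates A or B, WT 10 min replicates A or C, any 1 rrp6Δ 0 min replicate, or rrp6Δ 10 min replicates B or C.

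In the double deletion 10 members were higher and 1 (NOP6) lower than in WT at 10 min, beside 18.7% and 18.5%, and 5 were higher and 8 lower at 45 min, beside 24.7% and 27.4%. DBP8 was highest at both times (2.40 ± 0.22 and 2.19 ± 0.23), followed by UTP15 of UTP-A at 10 min (1.27 ± 0.22) and NOP16, a large-subunit factor, at 45 min (0.90 ± 0.22). The lowest were NOP6 (-0.98 ± 0.26) and NOP56, which did not pass (-0.66 ± 0.32), at 10 min, and NOP2 (-1.05 ± 0.35) and UTP8 (-0.97 ± 0.31) at 45 min. Total counts turned the 45 min split to 11 higher and 0 lower, with the all-gene median 0.45 higher. Without WT 10 min replicate B or C the 10 min count was 19 and 7, and without double-deletion 45 min replicate C the 45 min count was 7. NOP2 and UTP8 failed without WT 45 min replicate B (adjusted p = 0.276 and 0.237) or double-deletion 45 min replicate C (0.0561 and 0.0526).

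As heat responses, 12 members fell less than in WT by 10 min and 8 by 45 min, and none more, beside 9.14% and 15.9% of all genes with the higher and 11% and 21.0% with the lower response. They were 6 small-subunit, 4 large-subunit and 2 snoRNP genes at 10 min. DBP8 (2.87 ± 0.28) and NOP53 (1.91 ± 0.31) led at 10 min and DBP8 (2.66 ± 0.30) and NOP16 (1.38 ± 0.29) at 45 min. At the other end DBP1 (-0.24 ± 0.36) and NOP6 (-0.57 ± 0.36) at 10 min, and NOP2 (-0.58 ± 0.47) and UTP20 (-0.50 ± 0.32) at 45 min, did not pass. The counts were 24 and 6 without WT 10 min replicate B and C, and 5 at 45 min without WT 45 min replicate C.

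DBP8 differed from WT in its heat response in each deletion strain. It had 117, 110.4 and 103 CPM before heat, 9.79, 15.7 and 7.78 after 10 min and 16.6, 18.4 and 11.1 after 45 min in WT, 84.3, 76.7 and 87.8 CPM before heat, 44.3, 29.5 and 37 after 10 min and 40.9, 50.5 and 43.4 after 45 min in mpk1Δ, 110.2, 104 and 117 CPM before heat, 28, 31.8 and 44.9 after 10 min and 36.3, 52.9 and 50.4 after 45 min in rrp6Δ and 82.2, 83.9 and 72.5 CPM before heat, 49.7, 52.6 and 66.2 after 10 min and 60.6, 64 and 93.6 after 45 min in the double deletion. Every heated value of the deletion strains lay above every heated WT value, and in the double deletion the 45 min values overlapped the unheated ones. Its log2 fold change at 10 min was -3.36 ± 0.22 in WT, -1.18 ± 0.19 in mpk1Δ, -1.65 ± 0.19 in rrp6Δ and -0.49 ± 0.18 in the double deletion. The difference passed in all 3 strains at both times under all alternatives tried, with values from 1.35 to 3.18 and adjusted p up to 0.00331. The comparisons share the WT libraries, so they are not independent.

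DBP2 and NOP53 give the other patterns. DBP2 had 332, 405 and 402 CPM before heat, 27.5, 23.9 and 31.3 after 10 min and 19.7, 25.1 and 22.6 after 45 min in mpk1Δ and 802, 850.3 and 897 CPM before heat, 229.6, 234 and 249 after 10 min and 329, 275 and 243 after 45 min in rrp6Δ. The mpk1Δ values lay below every WT value of the same time and the rrp6Δ values above, with log2 differences at 45 min of -1.91 ± 0.23 and 1.73 ± 0.22. NOP53 had 216, 219 and 179.8 CPM before heat, 24.8, 39.6 and 26.6 after 10 min and 32.6, 56.1 and 23.9 after 45 min in WT and 147, 132 and 115 CPM before heat, 61.9, 92.1 and 64.4 after 10 min and 49.7, 60.4 and 82.3 after 45 min in the double deletion. Its WT values were the higher before heat and, at 10 min, all lower than those of the double deletion; the 45 min values overlapped.

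**Figure D5:**
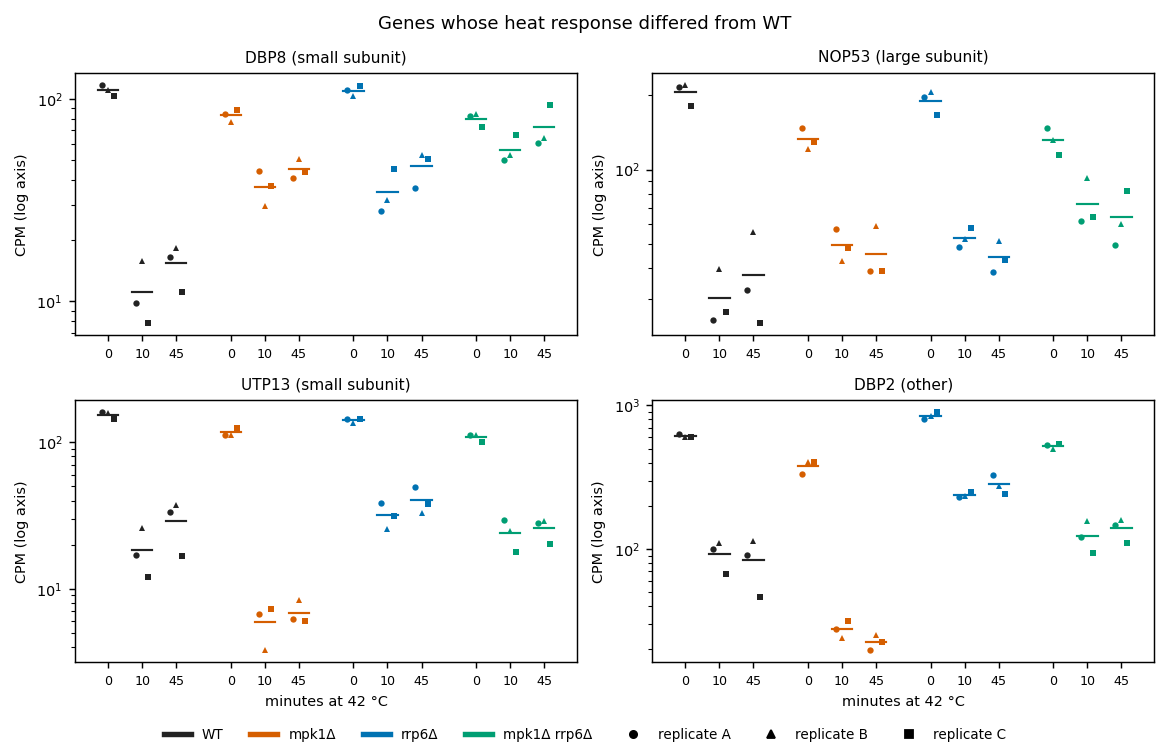
CPM on a log axis against minutes at 42 °C for DBP8, NOP53, UTP13 and DBP2 in all 36 libraries; colours are strains, symbols replicates, bars group means. DBP8 keeps its highest heated levels in the double deletion (up to 93.6 CPM, against 18.4 CPM in heated WT), and UTP13 and DBP2 are lowest in heated mpk1Δ.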

How the data were processed

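Total RNA of 36 yeast cultures was sequenced. The authors deposited read counts for 6600 reading frames, made with HISAT2 2.1.0, build R64 and HTSeq per the submitters' processing notes; neither the version of HTSeq nor its strand mode is given in the sources used here. Heat time, labelled without a unit, was read as minutes from the treatment text. The 5 summary lines of each file (15.9% to 50.1% of a library's reads) stayed out of library sizes. Their share differed by strain, with 17.5% to 30.8% in heated WT and 19.0% to 30.6% in heated mpk1Δ. It was 36.5% to 50.1% in heated rrp6Δ and 31.0% to 44.3% in the heated double deletion. The effect of this on the comparisons was not tested. Of the 6600 identifiers 5917 matched the R64 RefSeq annotation, and no member overlaps another gene of that annotation. Overlap with the 683 counted reading frames that did not match was not checked. The 47 genes, their classes, the pathway lists and the tests were chosen with earlier results of these data known.

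Genes were kept by filterByExpr (minimum count 10, minimum total 15), and edgeR 4.0.16 fitted quasi-likelihood models in R 4.3.3 with TMM factors (0.618 to 1.388) and 1 coefficient for each of 12 groups (biological coefficient of variation 0.1535). P-values were adjusted by Benjamini-Hochberg across the 6017 genes in each of 27 comparisons (threshold 0.05), and the fit was tested on simulated data. Standard errors follow ±. CPM are from TMM-scaled library sizes. The reported fit has no replicate block. Letters were taken to pair samples where same-letter deviations correlated above 0.1 for all 3 letters, which held in 8 comparisons. These were 45 against 10 min in WT, mpk1Δ and the double deletion, and mpk1Δ against WT at 0 and 45 min. The rest were the double deletion against WT at 0, 10 and 45 min. The reported p-values from edgeR ignore this pairing, and a block was fitted only as an alternative. Alternatives were DESeq2 1.42.0, other scalings and filters, a block, fits of the compared libraries alone, and leaving out libraries. Named with all library values of the comparison were, per class, the 2 genes with the most and the 1 with the least negative WT change at 10 min, and those that moved against most members in heated WT; DBP8, UTP13, NOP53 and others given by library were chosen after their values were seen. Named with fold changes were the next ones by that order, and the 2 highest and 2 lowest genes of each strain and response comparison.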

Additional observations from a re-analysis of the deposited data

Results flagged for a closer look

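The change with heat differed from that in WT, by edgeR's test of the difference itself, for some members in each deletion strain. In mpk1Δ this held for 12 of the 47 genes at 10 min and 20 at 45 min, beside 21.3% and 42.2% of all genes. In rrp6Δ it held for 7 and 4 genes, beside 13.2% and 32.2%, and in the double deletion for 12 and 8, beside 20.2% and 36.9%. With both directions pooled, the members' counts were near the share of all genes at 10 min and in mpk1Δ at 45 min. Those pooled counts are thus no result about these genes. In rrp6Δ and the double deletion at 45 min the members' counts were under the share of all genes, and the reason was not tested. By direction the members stood apart from all genes at 10 min. In rrp6Δ 7 had the higher and 0 the lower response, beside 4.79% and 8.38% of all genes. In the double deletion 12 had the higher and 0 the lower, where 9.14% of all genes had the higher. Leaving out 1 library moved these counts to between 3 and 15 in rrp6Δ and between 6 and 24 in the double deletion. The direction was not particular to the members. In rrp6Δ 8 of 48 large-subunit, 4 of 43 small-subunit and 1 of 9 snoRNP genes under other names had the higher response. There 1, 1 and 0 had the lower. In the double deletion 22, 21 and 5 of them had the higher and 0 of each the lower. Genes named by the rule were also flagged singly for a heat response that differed from WT. In mpk1Δ they were, as log2 differences, DBP3 (-1.22), NOP53 (1.34) and DBP8 (2.18) at 10 min. At 45 min in mpk1Δ they were NOP2 (-1.79), UTP13 (-1.69), UTP23 (1.55) and DBP8 (1.91). In rrp6Δ they were DBP7 (1.31) and DBP8 (1.71) at 10 min and DBP2 (1.26), NOC4 (-1.07) and DBP8 (1.54) at 45 min. In the double deletion they were NOP53 (1.91) and DBP8 (2.87) at 10 min and NOP16 (1.38) and DBP8 (2.66) at 45 min.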

How the results depend on the processing

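Of the counts of members called, 330 values under alternatives kept within 1.5 times the reported one and 64 did not. The WT heat counts stayed between 46 and 47 when 1 library was left out, and blocking on the replicate letter moved by more than 1.5 times only the unheated comparisons of mpk1Δ (4 to 8) and the double deletion (10 to 16) with WT. With total counts the count was 10 for WT 45 against 10 min, 0, 2 and 1 for mpk1Δ, rrp6Δ and the double deletion against WT before heat, and 7, 2 and 7 for their 10 min response differences. Fits of the compared libraries alone gave 6 for WT and 0 for the double deletion at 45 against 10 min, 41, 9 and 40 before heat, 5 and 5 for the heated double deletion, and 11 for the rrp6Δ 10 min response. Over all genes those fits before heat called 1086, 916 and 1304 lower and 1181, 1037 and 1353 higher in mpk1Δ, rrp6Δ and the double deletion. DESeq2 gave 7 for unheated mpk1Δ, as did its size factors in edgeR, and 5 for the double deletion at 45 against 10 min, which was 7 without both heated C libraries. Leaving out 1 library gave 8 to 29 for WT at 45 against 10 min, 5 to 15 for mpk1Δ, 3 to 7 for rrp6Δ and 2 to 6 for the double deletion. Against WT it gave 0 to 4, 21 to 34 and 21 to 35 in mpk1Δ at 0, 10 and 45 min, 8 to 25 and 6 to 12 in rrp6Δ at 10 and 45 min, and 1 to 5, 7 to 19 and 7 to 18 in the double deletion. The response differences ranged from 6 to 16 in mpk1Δ, 3 to 15 in rrp6Δ and 6 to 24 in the double deletion at 10 min, and from 5 to 11 in the double deletion at 45 min. Signs turned for changes that never passed: UTP20 in unheated mpk1Δ (0.11 with total counts, -0.26 to 0.087 without 1 library) and in the unheated double deletion (0.21, and -0.21 to 0.016 without 1 library), and DBP1 in the double-deletion 10 min response (8.74e-05 without WT 10 min replicate C, and -0.47 to that value without 1 library). Where total counts changed a split, it shifted the median of all genes by up to 0.76; the causes of the other changes were not tested. Total counts shifted that median by over 0.1 in 23 of 27 comparisons. The lowest counts, those of DBP1, limit its precision.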
